A study of Mus musculus with 26 samples.

Results

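The 10 genes of iron uptake, storage and recycling described here were Tfrc, Trf and Slc11a2 (uptake), Fth1 and Ftl1 (storage), Slc40a1 and Cp (export), and Hmox1, Slc48a1 and Slc11a1 (recycling). They were taken by symbol from the gene count tables of mouse adipocytes and of stromal vascular cells (SVC), each symbol matching 1 of the 39017 genes in each table. All 10 passed the filter on low counts in both fractions.

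RNA was sequenced from the epididymal white fat of male C57BL/6J mice that entered the study at 9 to 10 weeks of age. Lean controls ate a low-fat diet with 10% fat (LFD) for 12 weeks, obese mice ate a 60% fat diet (HFD) for 12 weeks, and formerly obese mice ate the HFD for 9 weeks and then the LFD for 3 weeks (SW). Collagenase separated the fat into floating adipocytes and pelleted SVC, and only the SVC went through red blood cell lysis. The adipocyte table gave 3 libraries per diet, and the SVC table gave 1 LFD, 2 HFD and 3 SW libraries whose columns could be tied to a diet. The labels list 26 records for 18 libraries, and 3 of the 18 value columns, all SVC, could not be tied to a diet and were not used. The titles mark each record as paired-end or single. All adipocyte SW records were paired-end, while some adipocyte LFD and HFD libraries also had a single record. Every SVC SW library had both, while SVC LFD and HFD libraries had single records, paired-end records or both. Columns were not tied to individual records, so the part of read layout was not tested. Libraries are called here by the number in their column name. Total counts were 6142895, 19720207 and 7510142 in adipocyte LFD libraries 404, 405 and 406. They were 12223677, 23725647 and 22162837 in adipocyte HFD libraries 401, 402 and 403. In adipocyte SW libraries 407, 408 and 409 they were 11314661, 16271834 and 13722008. The SVC totals were 5781902 in LFD library 236, 13106471 and 17818059 in HFD libraries 212 and 411, and 10155860, 22195810 and 10121939 in SW libraries 412, 413 and 414.

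Levels are given in CPM, counts in each 1000000, scaled over all 15 libraries together with edgeR's TMM factors, which correct for a few abundant genes taking up many counts. On this scale 3 counts, the upper limit that a count of 0 allows, were 0.114 to 0.650 CPM over the 15 libraries, for counting error only. Differences are log2 fold changes with their standard error (SE), so that 1 is a doubling. A gene was called changed when its p from edgeR's quasi-likelihood test, adjusted by Benjamini-Hochberg over all genes tested, was below 0.05. The labels do not say whether the libraries of a group came from separate mice, so these p-values measure only the spread between the libraries at hand. In bulk RNA, fewer cells of a type and less RNA per cell cannot be told apart.

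Several libraries stood apart before any comparison was made. The 2 SVC HFD libraries differed from each other more than any other replicate pair. Mitochondrial genes took 33.5% of the counts in library 411 and 6.34% in 212, and hemoglobin genes took 3.09% and 0.287%. Library 411 also held transcripts of the liver, with albumin at 1373 CPM, against 3.49 to 54.5 CPM in the other libraries. Adipocyte SW library 407 held 62573 CPM over 86 ribosomal protein genes, against 23930 to 35304 CPM in the other adipocyte libraries. It also gave 4.73% of its counts to the single gene Gm26924, against 0.0553% to 1.68% in the other adipocyte libraries. In the SVC, LFD library 236 gave 4.35% of its counts to Gm26924, against 0.126% to 0.375% in the other SVC libraries. The ribosomal protein genes ran from 29397 CPM in SVC library 212 to 73553 CPM in SVC library 414. Albumin, these ribosomal genes and Gm26924 were chosen after their values were seen. The SVC LFD group rested on library 236 alone, so its values are given without a test.

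The fractions carried the markers of their labels. The 9 adipocyte markers summed to 10260 to 34680 CPM in the adipocyte libraries, where Fabp4 was the most abundant, and to 748 to 1390 CPM in the SVC, where it was Fabp4 or Pnpla2. The 5 markers of fibroblasts and progenitors summed to 1206 to 3737 CPM in adipocytes and to 4885 to 17145 CPM in the SVC. Macrophage transcripts were present in both fractions. The 12 macrophage markers found in the tables, of 13 listed, were above 0 in every library. They summed to 1169, 1119 and 680 CPM in the adipocyte LFD libraries, to 11081, 9554 and 11436 CPM in HFD and to 10004, 7259 and 6942 CPM in SW. The SVC libraries held 10970 CPM in LFD, 14357 and 26327 CPM in HFD, and 28455, 23031 and 28949 CPM in SW. Lyz2 was the most abundant of them in all adipocyte libraries, and Csf1r or Gpnmb in SVC libraries 236 and 413. The 12 macrophage markers thus were lowest in the adipocyte libraries of lean mice, and adipocyte HFD and SW libraries did not overlap them.

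Cells take up iron bound to transferrin through the transferrin receptor, or as free ferrous iron through divalent metal transporters, store it in the ferritin shell built of heavy and light chains, and release it through ferroportin. Macrophages also take iron from the heme of engulfed red cells, which heme oxygenase opens, and macrophages of adipose tissue include cells rich in iron that express these recycling genes. Mice of the C57BL/6 strain carry an allele of Slc11a1 whose protein does not function, so its transcript marks the cells that express it and not its transport activity.

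On a per-kb scale, where each gene's CPM is divided by the length of its transcript, the ferritin chains were the most abundant of the 10 genes in every group. In adipocytes of LFD mice the mean levels per kb ran from Ftl1 (1897 ± 196 CPM per kb, SD, n = 3) and Fth1 (1695 ± 159) through Trf (940 ± 122), Slc48a1 (90.6 ± 2.55), Hmox1 (29.3 ± 6.69), Cp (18.7 ± 4.70), Slc11a1 (9.61 ± 2.85), Slc11a2 (6.39 ± 0.434) and Tfrc (5.89 ± 1.74) to Slc40a1 (2.30 ± 0.499). Within that order the library ranges of Ftl1 and Fth1 overlapped, as did those of Hmox1 and Cp. Those of Slc11a1, Slc11a2 and Tfrc overlapped too, each compared with its neighbour. Within each of the LFD libraries, however, Ftl1 exceeded Fth1, with ratios per kb of 1.11, 1.17 and 1.08, and Slc11a1 exceeded Slc11a2. In HFD adipocytes the order per kb was Ftl1 (4594 ± 768), Fth1 (2641 ± 149), Trf (544 ± 122), Hmox1 (134 ± 21.3), Slc48a1 (109 ± 22.0), Slc11a1 (71.5 ± 7.10), Cp (16.3 ± 1.32), Slc11a2 (10.8 ± 0.299), Tfrc (7.56 ± 0.368) and Slc40a1 (5.01 ± 1.88). Hmox1 and Slc48a1 overlapped there, and Slc11a1 stood above Cp, which it did not in LFD adipocytes. SW adipocytes kept the HFD order, with Ftl1 at 5709 ± 1797, Fth1 at 4136 ± 844, Hmox1 at 134 ± 20.0, Slc48a1 at 127 ± 22.9 and Slc11a1 at 61.9 ± 12.4 CPM per kb. Ftl1 overlapped Fth1 in that group and Hmox1 overlapped Slc48a1. In the SVC of SW mice the order per kb was Ftl1 (13868 ± 2122), Fth1 (5819 ± 1109), Trf (703 ± 18.3), Slc11a1 (271 ± 51.1), Hmox1 (245 ± 55.2), Slc48a1 (185 ± 20.8), Slc11a2 (14.1 ± 0.875), Cp (14.0 ± 3.13), Slc40a1 (3.17 ± 0.332) and Tfrc (1.40 ± 0.323). There Slc11a1, Hmox1 and Slc48a1 overlapped their neighbours, as did Slc11a2 and Cp.

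**Figure D1:**
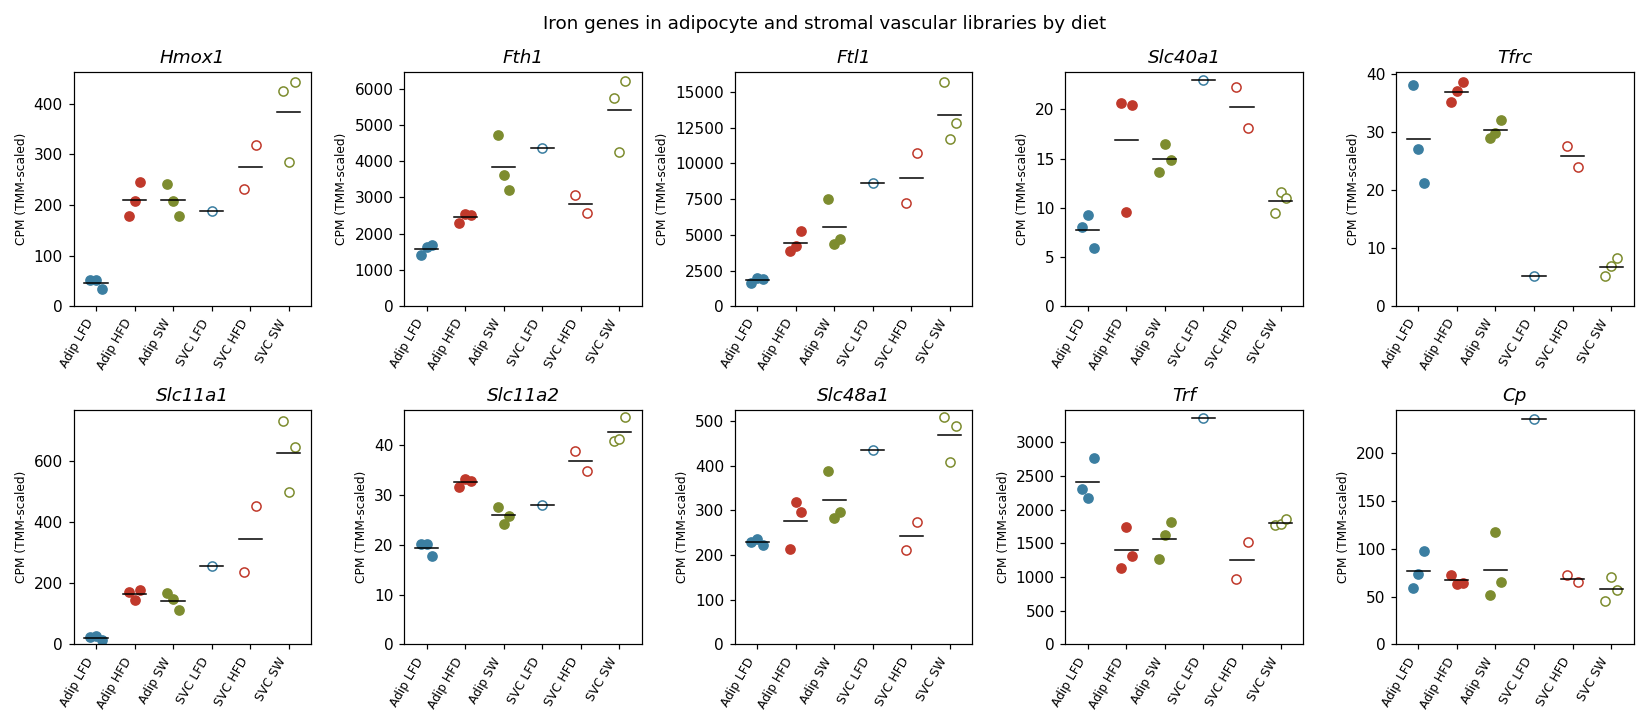
Level of each of the 10 iron genes in every library, in TMM-scaled CPM on linear axes that start at 0, by fraction and diet. Filled points are adipocyte libraries, open points SVC libraries, and black lines group means; Hmox1 lay at 33.9 to 52.6 CPM in LFD adipocytes and at 178 to 245 CPM in HFD and SW adipocytes.

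The comparison of HFD with LFD adipocytes asked which genes differed in obesity. The recycling genes Hmox1 and Slc11a1, both ferritin genes, the exporter Slc40a1 and the uptake gene Slc11a2 were higher in obese mice, while transferrin was lower. Of the 10 genes, 6 rose and 1 fell, where 26.5% of the 14461 genes tested rose and 25.0% fell. The share that rose was thus above that of all genes. With only 10 genes, the share that fell is not read as a trait of the members. The median log2 fold change of the 10 genes was 0.68, against -0.03 for all genes tested.

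Among the recycling genes, Slc11a1 (ENSMUSG00000026177, chr1:74375195-74386062) encodes NRAMP1, a metal transporter of the phagosome membrane. It measured 23.3, 28.3 and 15.2 CPM in the LFD adipocyte libraries, 172, 147 and 178 CPM in HFD and 170, 148 and 113 CPM in SW. Every HFD and SW library lay far above every LFD library, and HFD and SW overlapped. Slc11a1 rose 7.28-fold in HFD adipocytes (log2 fold change 2.86 ± 0.24, SE; edgeR quasi-likelihood test, adjusted p = 1.62e-05), the largest change among the 10 genes.

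Hmox1 (ENSMUSG00000005413, chr8:75093621-75100589) encodes the inducible heme oxygenase that frees iron from heme. Its levels were 51.4, 52.6 and 33.9 CPM in LFD adipocytes, 178, 209 and 245 CPM in HFD and 242, 208 and 179 CPM in SW. As for Slc11a1, no HFD or SW library came near the LFD libraries, and the HFD and SW ranges lay on top of each other. Hmox1 rose 4.51-fold from LFD to HFD (2.17 ± 0.21, edgeR quasi-likelihood test, adjusted p = 3.3e-05). The third recycling gene, Slc48a1 (ENSMUSG00000081534, chr15:97778520-97792692), encodes HRG1, which carries heme out of the phagolysosome, and it did not pass the test. It measured 223 to 236 CPM in LFD and 213 to 318 CPM in HFD adipocytes (0.24 ± 0.18, edgeR quasi-likelihood test, adjusted p = 0.28).

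For storage, the ferritin light chain gene Ftl1 (ENSMUSG00000050708, chr7:45457944-45459884) measured 1628, 1997 and 1884 CPM in LFD adipocytes, 3840, 4225 and 5276 CPM in HFD and 7525, 4351 and 4702 CPM in SW. All HFD and SW libraries exceeded all LFD libraries, and SW library 407 was the highest. Ftl1 rose 2.39-fold with HFD (1.26 ± 0.25, edgeR quasi-likelihood test, adjusted p = 0.00221). The heavy chain gene Fth1 (ENSMUSG00000024661, chr19:9980598-9985098), whose product oxidises iron for storage, measured 1406, 1642 and 1677 CPM in LFD, 2295, 2551 and 2515 CPM in HFD and 4712, 3623 and 3191 CPM in SW. Its 3 diet groups did not overlap and climbed from LFD through HFD to SW. Fth1 rose 1.54-fold from LFD to HFD (0.62 ± 0.19, edgeR quasi-likelihood test, adjusted p = 0.0209). That call ended without LFD library 404 (adjusted p = 0.0655), LFD library 405 (0.053) or HFD library 403 (0.0677), over a leave-one-out range of 0.00575 to 0.0677.

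The 2 ferritin genes together took 0.354%, 0.401% and 0.399% of all counts in LFD adipocytes, 0.748%, 0.753% and 0.870% in HFD, and 1.15%, 0.914% and 0.896% in SW. The ratio of Ftl1 to Fth1 per kb was 1.11, 1.17 and 1.08 in LFD, 1.61, 1.59 and 2.01 in HFD, and 1.53, 1.15 and 1.41 in SW. Light chain transcripts thus outnumbered heavy chain transcripts per kb in all 9 libraries, with the HFD libraries above the LFD libraries. Named ferritin copies elsewhere in the genome reached at most 5 counts in a library, and rows described as light chain pseudogenes at most 101 counts.

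Of the export genes, Slc40a1 (ENSMUSG00000025993, chr1:45908068-45926523) encodes ferroportin, the exporter of cellular iron. It measured 8.08, 9.25 and 5.94 CPM in LFD adipocytes, 20.6, 9.56 and 20.5 CPM in HFD and 13.7, 16.5 and 14.8 CPM in SW. HFD library 402 sat just above the LFD libraries, while the other two HFD libraries were clearly higher. Slc40a1 rose 2.11-fold in HFD (1.08 ± 0.29, edgeR quasi-likelihood test, adjusted p = 0.0109). Cp (ENSMUSG00000003617, chr3:19957054-20009145), which encodes the ferroxidase ceruloplasmin that loads exported iron onto transferrin, measured 59.4 to 97.4 CPM in LFD and 63.2 to 73.0 CPM in HFD adipocytes and was not called (-0.22 ± 0.28, edgeR quasi-likelihood test, adjusted p = 0.536).

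Of the uptake genes, Trf (ENSMUSG00000032554, chr9:103204001-103230444) encodes transferrin, the secreted carrier of iron. Its levels were 2309, 2171 and 2769 CPM in LFD adipocytes, 1139, 1746 and 1307 CPM in HFD and 1273, 1617 and 1820 CPM in SW. Every LFD library was above every HFD and SW library. Trf fell 1.75-fold with HFD (-0.81 ± 0.22, edgeR quasi-likelihood test, adjusted p = 0.0104) and was the only 1 of the 10 genes to do so. The 9 adipocyte markers moved the same way from LFD to HFD, and 7 of the 9 fell. They summed to 25072, 33246 and 34680 CPM in LFD and 10260, 17455 and 13412 CPM in HFD. In SW they summed to 23436, 22365 and 23009 CPM, above every HFD library, while Trf in SW overlapped HFD. In the SVC, where these markers summed to 748 to 1390 CPM, Trf measured 972 to 3355 CPM. The part of the adipocyte markers in the change of Trf was not tested.

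Slc11a2 (ENSMUSG00000023030, chr15:100387898-100425072), which encodes the ferrous iron transporter DMT1, measured 20.1, 20.1 and 17.8 CPM in LFD adipocytes, 31.5, 33.3 and 32.9 CPM in HFD and 27.6, 24.2 and 25.8 CPM in SW. The 3 diets formed separate groups with SW between the others. Slc11a2 rose 1.66-fold with HFD (0.73 ± 0.11, edgeR quasi-likelihood test, adjusted p = 0.000403). Tfrc (ENSMUSG00000022797, chr16:32608920-32632794), the transferrin receptor, measured 38.0, 27.1 and 21.3 CPM in LFD, 35.1, 37.1 and 38.7 CPM in HFD and 28.9, 29.8 and 32.1 CPM in SW. LFD library 404 was as high as the HFD libraries and the other two were lower, and Tfrc was not called (0.35 ± 0.18, edgeR quasi-likelihood test, adjusted p = 0.137). Without library 404 it was called (0.60, adjusted p = 0.00673), over a leave-one-out range of 0.00673 to 0.414.

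**Figure D2:**
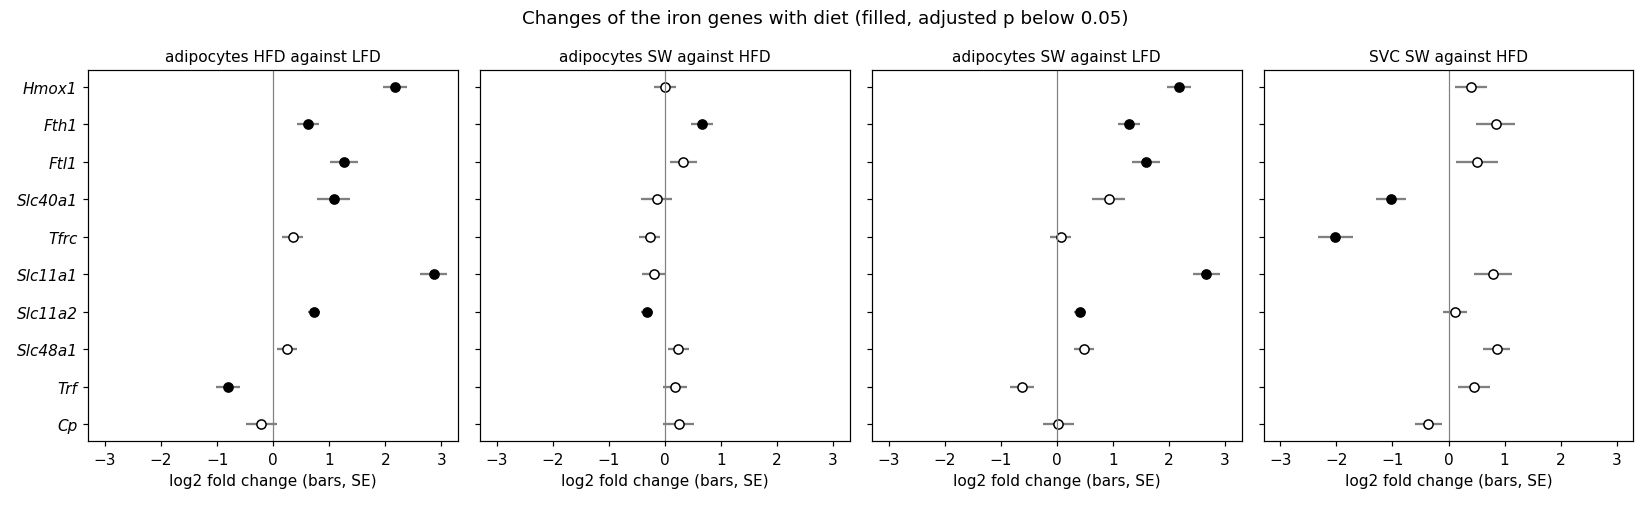
Log2 fold changes of the 10 iron genes with diet, with SE as bars, in 4 comparisons within a fraction. Filled points passed edgeR's adjusted p below 0.05; the largest changes in HFD against LFD adipocytes were Slc11a1 (2.86) and Hmox1 (2.17), and in the SVC Tfrc (-2.02).

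Macrophage markers moved with the recycling genes Hmox1 and Slc11a1. All 12 macrophage markers rose in HFD adipocytes, with a median log2 fold change of 3.22. Per 1000 CPM of these markers, Slc11a1 stood at 22.5 ± 2.68 CPM in LFD adipocytes, 15.5 ± 0.0970 CPM in HFD and 17.8 ± 2.21 CPM in SW (SD, n = 3). The SVC values on the same scale were 23.5 CPM in LFD, 16.9 ± 0.429 CPM in HFD (n = 2) and 23.3 ± 2.18 CPM in SW (n = 3). Single adipocyte libraries lay at 19.9 to 25.3 CPM in LFD, 15.4 to 15.5 CPM in HFD and 16.2 to 20.4 CPM in SW. HFD did not overlap the other diets there, while SW overlapped LFD. SVC libraries lay at 16.6 to 17.2 CPM in HFD and 21.7 to 25.7 CPM in SW, without overlap. The LFD SVC library, at 23.5 CPM, lay within the SW range. Hmox1 stood at 46.9 ± 2.87 CPM per 1000 CPM of markers in LFD adipocytes, 19.8 ± 3.22 CPM in HFD and 26.2 ± 2.23 CPM in SW, and at 14.1 ± 2.85 and 14.2 ± 1.60 CPM in HFD and SW SVC. Fth1 ran from 1711 ± 665 CPM per 1000 CPM of markers in LFD adipocytes to 231 ± 31.5 CPM in HFD and 477 ± 20.3 CPM in SW. Other cell type markers moved in the same comparison of HFD with LFD adipocytes. Of the 5 markers of fibroblasts and progenitors 3 rose (median 1.33), summing to 2574 to 3737 CPM in HFD and 1206 to 1783 CPM in LFD. All 5 erythroid markers tested fell (median -1.84), as did 4 of 5 endothelial (-0.88) and 3 of 5 mesothelial markers (-1.72), while 1 of 4 neutrophil markers tested rose (0.05). The part of any of these cell types in the changes of the iron genes was not tested.

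**Figure D3:**
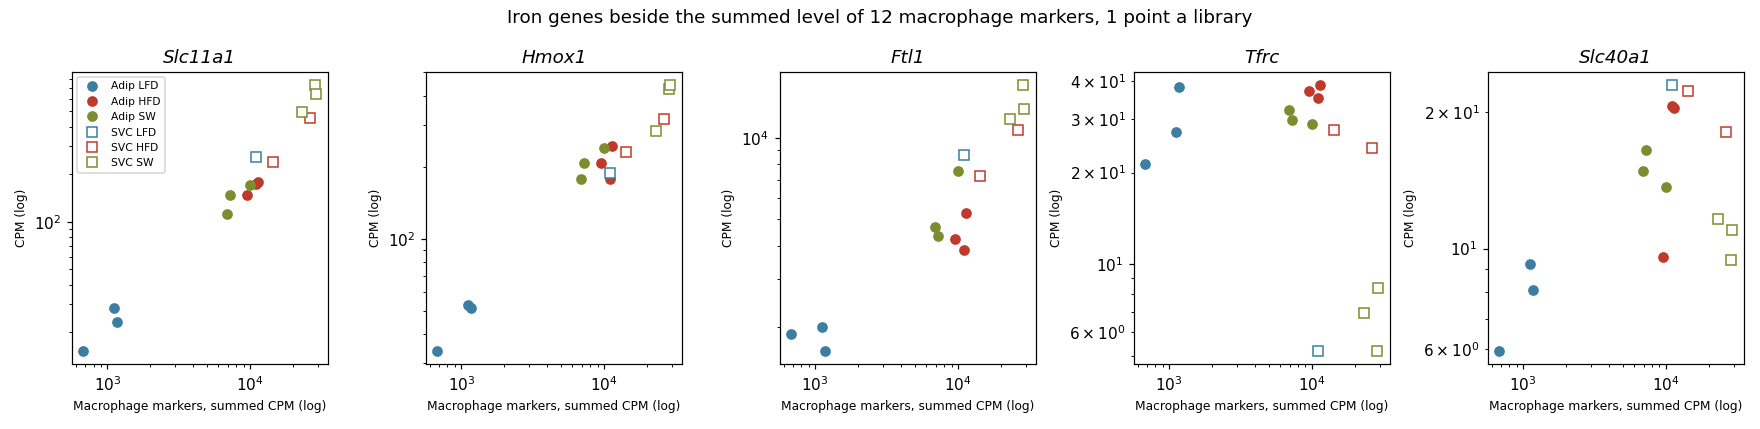
Level of 5 iron genes in CPM against the summed CPM of 12 macrophage markers, 1 point a library, on log axes. Slc11a1 climbed with the markers from 15.2 CPM at 680 CPM of markers to 733 CPM at 28455 CPM, while Tfrc in the SVC was lowest in the LFD library and in the SW libraries.

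The comparison of SW with HFD adipocytes asked what differed after 3 weeks back on the LFD. Most of the iron genes did not differ from their HFD levels beyond the spread between libraries. Only 1 of the 10 genes rose and 1 fell, where 15.6% of the 14461 genes tested rose and 15.9% fell, so the members moved no more often than other genes. Their median log2 fold change was 0.10, against 0.01 for all genes. This comparison shares the HFD libraries with the comparison of HFD and LFD.

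Fth1 rose 1.58-fold further in SW adipocytes (0.66 ± 0.19, edgeR quasi-likelihood test, adjusted p = 0.0279), with all 3 SW libraries above all 3 HFD libraries. The call ended without HFD library 401 (adjusted p = 0.0892), 402 (0.0568) or 403 (0.096) and without SW library 407 (0.0572) or 408 (0.0502), in a leave-one-out range of 0.0288 to 0.096. It also ended with no filter on low counts (0.063), in a range of 0.000646 to 0.063 over the other settings. Slc11a2 fell 1.25-fold (-0.32 ± 0.10, edgeR quasi-likelihood test, adjusted p = 0.0414), with all SW libraries below all HFD libraries and above all LFD libraries. This call ended without LFD library 405 (adjusted p = 0.0604), without HFD library 401 (0.0784), 402 (0.0591) or 403 (0.109), and without SW library 408 (0.1) or 409 (0.0975), in a leave-one-out range of 0.0347 to 0.109. It ended as well with upper-quartile factors (0.0576), with no filter (0.06) and with only the groups compared in the fit (0.0676), in a range of 0.0201 to 0.0676.

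None of the other 8 genes passed the test. Hmox1 gave 0.01 ± 0.20 (edgeR quasi-likelihood test, adjusted p = 0.98), and Slc11a1 gave -0.20 ± 0.22 (adjusted p = 0.512). Ftl1 gave 0.33 ± 0.24 (adjusted p = 0.323), and its value was 0.04 without library 407, the highest SW library. Tfrc gave -0.27 ± 0.18, Slc40a1 -0.15 ± 0.27, Slc48a1 0.24 ± 0.18, Trf 0.18 ± 0.21 and Cp 0.24 ± 0.27. Of the 12 macrophage markers 3 fell and none rose, with a median of -0.41, and 4 of the 9 adipocyte markers rose (0.72). Of the other cell type markers tested, 4 of 5 erythroid (1.15), 2 of 4 B cell (1.13), 1 of 4 T cell (1.23) and 1 of 5 endothelial markers (-0.19) rose, and 2 of 5 of fibroblasts and progenitors fell (-0.59). Their part in the changes of Fth1 and Slc11a2 was not tested.

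The comparison of SW with LFD adipocytes asked which differences from lean mice were still there after the diet switch. The recycling genes Slc11a1 and Hmox1, both ferritins and Slc11a2 remained above lean levels. Of the 10 genes, 5 were higher in SW, where 10.9% of the genes tested were, and 0 were lower, where 6.18% were. The share of members above lean levels thus exceeded that of all genes. For the count of 0 lower genes by edgeR's quasi-likelihood test, 1 gene was lower at an unadjusted p below 0.05, DESeq2 called 1 and limma-voom called 0. The median over the 10 genes was 0.71, against 0.00 over all genes tested. The LFD and SW libraries also stand in the comparisons above.

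Slc11a1 stayed 6.36-fold above LFD (2.67 ± 0.24, edgeR quasi-likelihood test, adjusted p = 7.07e-05) and Hmox1 4.53-fold (2.18 ± 0.21, adjusted p = 0.000101). Ftl1 was 3.00-fold higher (1.59 ± 0.25, edgeR quasi-likelihood test, adjusted p = 0.00187) and Fth1 2.43-fold (1.28 ± 0.19, adjusted p = 0.00147). All 3 SW libraries lay above all LFD libraries for each of these 4 genes, and all 12 macrophage markers were higher as well, with a median of 2.87. Of 4 neutrophil markers 1 was higher, while 5 of 5 endothelial (median -0.95), 3 of 5 erythroid (-0.76), 2 of 5 mesothelial (-1.29) and 1 of 9 adipocyte markers (-0.42) were lower. The part of these cell types was not tested. Slc11a2 was 1.33-fold higher (0.41 ± 0.11, edgeR quasi-likelihood test, adjusted p = 0.0264). Its call ended without LFD library 405 (adjusted p = 0.0648) or 406 (0.102), HFD library 403 (0.0536) or SW library 407 (0.0575) or 409 (0.0622), in a leave-one-out range of 0.0348 to 0.102. It ended also with no filter (0.0541), in a range of 0.01 to 0.0541 over the other settings.

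The remaining genes did not pass the test in SW against LFD adipocytes. Slc40a1 came closest (0.93 ± 0.29, edgeR quasi-likelihood test, adjusted p = 0.0544), with all SW libraries at 13.7 to 16.5 CPM and all LFD libraries at 5.94 to 9.25 CPM. Trf gave -0.63 ± 0.21 (adjusted p = 0.0728) and stayed at 1273 to 1820 CPM, below every LFD library. Slc48a1 gave 0.48 ± 0.18 (edgeR quasi-likelihood test, adjusted p = 0.0956). DESeq2 called these 3 genes, with an adjusted p of 0.0179 for Slc40a1, 0.00838 for Trf and 0.042 for Slc48a1, over ranges of 0.0114 to 0.107, 0.00838 to 0.106 and 0.042 to 0.116. Slc40a1 was also called with only the groups compared (adjusted p = 0.0114) and without HFD library 402 (0.00594, leave-one-out range 0.00594 to 0.168). Tfrc gave 0.07 ± 0.18 and Cp 0.03 ± 0.28.

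In the SVC, SW was compared with HFD, again to ask what differed after the switch. Here the lower genes were Tfrc, for uptake, and Slc40a1, for export, while recycling and storage genes had higher means that did not pass the test. Of the 10 genes 0 rose, where 5.71% of the 16319 genes tested did, and 2 fell, where 11.7% did. At an unadjusted p below 0.05, edgeR's quasi-likelihood test gave 1 higher gene, DESeq2 called 2 after adjustment and limma-voom called 0. The members' median log2 fold change was 0.43 against 0.03 for all genes.

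Tfrc measured 27.7 and 24.0 CPM in HFD SVC libraries 212 and 411, 5.20, 6.92 and 8.36 CPM in SW libraries 412, 413 and 414, and 5.20 CPM in the LFD library. Both HFD libraries were far above the SW libraries, which lay beside the LFD library. Tfrc fell 4.06-fold (-2.02 ± 0.31, edgeR quasi-likelihood test, adjusted p = 0.0362). The call ended without HFD library 212 (adjusted p = 0.0637), SW library 412 (0.155) or SW library 413 (0.0541), in a leave-one-out range of 0.0125 to 0.155, and the log2 fold change stayed between -2.19 and -1.76.

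Slc40a1 measured 22.3 and 18.1 CPM in HFD SVC, 9.44, 11.6 and 11.0 CPM in SW and 23.0 CPM in LFD. The SW libraries were below both HFD libraries and below the LFD library. It fell 2.03-fold (-1.02 ± 0.27, edgeR quasi-likelihood test, adjusted p = 0.0485). That call ended without HFD library 212 (adjusted p = 0.154) or SW library 412 (0.188), 413 (0.0901) or 414 (0.113), in a leave-one-out range of 0.0194 to 0.188. It ended with limma-voom (0.0585), RLE factors (0.053), upper-quartile factors (0.0529) and no filter (0.0566), in a range of 0.0236 to 0.0585.

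Slc48a1 measured 212 and 275 CPM in HFD SVC, 510, 409 and 488 CPM in SW and 435 CPM in LFD. The HFD libraries were the lowest and did not overlap SW, and the test stopped just short of the threshold (0.86 ± 0.24, edgeR quasi-likelihood test, adjusted p = 0.0531). Fth1 was at 3070 and 2572 CPM in HFD, 5750, 4248 and 6220 CPM in SW and 4375 CPM in LFD (0.84 ± 0.36, adjusted p = 0.123). DESeq2 called both, with an adjusted p of 0.00194 for Slc48a1 and 0.0145 for Fth1, over ranges of 0.00194 to 0.0574 and 0.0145 to 0.155. Slc48a1 was also called with RLE factors (adjusted p = 0.0495), with only the groups compared (0.0499), and without LFD library 236 (0.0499) or HFD library 411 (0.0312), in a leave-one-out range of 0.0312 to 0.209. Ftl1 was at 7246 and 10702 CPM in HFD, 15709, 11732 and 12831 CPM in SW and 8651 CPM in LFD (0.50 ± 0.37, edgeR quasi-likelihood test, adjusted p = 0.332).

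Slc11a1 measured 238 and 453 CPM in HFD SVC, 733, 499 and 648 CPM in SW and 258 CPM in LFD (0.79 ± 0.34, edgeR quasi-likelihood test, adjusted p = 0.124). Without HFD library 411 it was called higher (1.23, adjusted p = 0.033), in a leave-one-out range of 0.033 to 0.34. The lower HFD value belonged to library 212, which also held the fewer macrophage marker counts of the pair. Hmox1 measured 232 and 318 CPM in HFD, 426, 285 and 442 CPM in SW and 189 CPM in LFD, with overlapping HFD and SW groups (0.40 ± 0.29, adjusted p = 0.315). Slc11a2 measured 38.9 and 34.7 CPM in HFD, 40.8, 41.3 and 45.6 CPM in SW and 27.9 CPM in LFD. Trf measured 972 and 1523 CPM in HFD, 1776, 1785 and 1862 CPM in SW and 3355 CPM in LFD. For both genes HFD lay below SW without overlap. Cp ranged from 45.0 to 72.4 CPM in HFD and SW, which overlapped, against 235 CPM in LFD. None of these 3 genes passed the test. Trf and Cp are abundant in liver, and library 411, which held liver transcripts, measured 1523 CPM of Trf and 64.9 CPM of Cp against 972 and 72.4 CPM in library 212. The part of the liver transcripts was not tested.

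In the SVC comparison 1 of the 12 macrophage markers fell and 11 were not called, with a median of 0.47. Of the other markers 1 of 5 fibroblast and progenitor and 1 of 9 adipocyte markers fell, and 1 of 9 adipocyte and 1 of 5 endothelial markers rose. The 7 erythroid markers, led by Hbb-bs or Hba-a2, summed to 65286 CPM in LFD SVC, 2329 and 45300 CPM in HFD and 40482, 31206 and 47575 CPM in SW, and to 556 to 2889 CPM in adipocytes. The erythroid marker Slc4a1 was at 0 in adipocyte SW library 407. The part of these markers in the change of Tfrc was not tested. The calls of Tfrc (adjusted p = 0.0125) and Slc40a1 (0.0194) held without library 411, the lowest values of their leave-one-out ranges, which reached 0.155 and 0.188. The whole comparison rested on few libraries. Without SW library 412 or 413 no gene of the 16510 or 15716 tested passed the adjusted threshold of edgeR's quasi-likelihood test.

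Levels in the fractions were compared within a diet from both tables scaled together. In HFD mice Slc11a1 and Ftl1 were lower in adipocytes than in SVC. Adipocytes had 0 of the 10 genes higher than SVC, where 12.9% of the 17441 genes tested were, and 2 lower, where 16.2% were. For the count of 0, edgeR's quasi-likelihood test gave 1 higher gene at an unadjusted p below 0.05, and DESeq2 and limma-voom each called 0. The median over the members was -0.19, against -0.08 over all genes.

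Slc11a1 was 2.09-fold lower in HFD adipocytes than in HFD SVC (-1.06 ± 0.30, edgeR quasi-likelihood test, adjusted p = 0.0181). This ended without adipocyte library 402 (adjusted p = 0.064) or SVC library 411 (0.292), in a leave-one-out range of 0.00216 to 0.292, and with only the groups compared in the fit (0.0639), in a range of 0.0034 to 0.0639. Ftl1 was 2.02-fold lower (-1.01 ± 0.30, edgeR quasi-likelihood test, adjusted p = 0.0217). This ended without adipocyte library 401 (adjusted p = 0.0731) or 402 (0.0671) or SVC library 411 (0.169), in a leave-one-out range of 0.00668 to 0.169, and with only the groups compared in the fit (0.09), in a range of 0.000727 to 0.09. SVC library 411 had both the higher Ftl1 and the higher Slc11a1 of the SVC pair. Without library 411 the log2 difference was -0.52 for Slc11a1 and -0.70 for Ftl1. Tfrc gave 0.52 ± 0.23 (edgeR quasi-likelihood test, adjusted p = 0.106), its adipocyte libraries lying at 35.1 to 38.7 CPM. Of the 12 macrophage markers 5 were lower in adipocytes and none higher, as were 7 of 7 erythroid, 4 of 4 B cell, 4 of 5 T cell, 4 of 5 mesothelial, 3 of 5 fibroblast and progenitor and 1 of 4 neutrophil markers, while 9 of 9 adipocyte and 3 of 5 endothelial markers were higher.

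In SW mice Tfrc was higher in adipocytes, while Slc11a1, Ftl1, Hmox1, Slc11a2 and Slc48a1 were lower. Of the 10 genes 1 was higher, where 32.8% of the 17441 genes tested were, and 5 were lower, where 35.6% were. With only 10 genes, neither share is read as a trait of the members. The median over the members was -0.52, against -0.09 over all genes tested. Of the 12 macrophage markers 11 were lower in adipocytes, with a median of -1.88, as were 7 of 7 erythroid, 5 of 5 mesothelial, 4 of 5 fibroblast and progenitor, 3 of 5 T cell, 3 of 4 B cell and 2 of 4 neutrophil markers. The 9 adipocyte markers and 4 of 5 endothelial markers were higher, and the part of any cell type was not tested.

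Tfrc was 4.43-fold higher in SW adipocytes (2.15 ± 0.22, edgeR quasi-likelihood test, adjusted p = 2.56e-06), where its lowest adipocyte library held 28.9 CPM and its highest SVC library 8.36 CPM. Slc11a1 was 4.37-fold lower (-2.13 ± 0.28, edgeR quasi-likelihood test, adjusted p = 2.01e-05), with adipocytes at 113 to 170 CPM and SVC at 499 to 733 CPM. Ftl1 was 2.43-fold lower (-1.28 ± 0.27, adjusted p = 0.000974) and Hmox1 1.83-fold lower (-0.87 ± 0.23, adjusted p = 0.00449), both without overlap of the libraries. Slc11a2 was 1.65-fold lower (-0.72 ± 0.13, edgeR quasi-likelihood test, adjusted p = 0.00023), at 24.2 to 27.6 CPM in adipocytes and 40.8 to 45.6 CPM in SVC. Slc48a1 was 1.45-fold lower (-0.54 ± 0.19, edgeR quasi-likelihood test, adjusted p = 0.0248), a call that ended without adipocyte library 408 (adjusted p = 0.092) or 409 (0.0806) or SVC library 412 (0.15) or 414 (0.116), in a leave-one-out range of 0.0156 to 0.15. Fth1 gave -0.49 ± 0.22 (edgeR quasi-likelihood test, adjusted p = 0.0609). It was called lower with DESeq2 (adjusted p = 0.00348), limma-voom (0.0417), RLE factors (0.0356) and upper-quartile factors (0.0382), in a range of 0.00348 to 0.122, and without adipocyte library 407 (0.0421) or SVC library 212 (0.04), in a leave-one-out range of 0.04 to 0.339. Slc40a1 (0.49), Cp (0.44) and Trf (-0.20) were not called. Slc40a1 was called without adipocyte library 402 (adjusted p = 0.0366, leave-one-out range 0.0366 to 0.256), and Cp without adipocyte library 407 (0.0267, range 0.0267 to 0.946).

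The interaction of fraction and diet tested whether adipocytes and SVC differed in how they went from HFD to SW. Of the 10 genes 1 had a higher and 1 a lower change in adipocytes, where 15.7% and 11.4% of the 17441 genes tested did, shares near those of the members. The members' median was -0.33 against 0.04 for all genes. Of the markers, 3 of 12 macrophage, 2 of 5 fibroblast and progenitor and 1 of 4 neutrophil markers had a lower change in adipocytes, and 2 of 9 adipocyte and 1 of 5 endothelial markers a higher one. Tfrc differed by 1.63 ± 0.31 in log2 (edgeR quasi-likelihood test, adjusted p = 0.00326). It gave -0.27 in adipocytes and -2.02 in SVC, each from the fit within its fraction, and its call held under every alternative and every library left out.

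Slc11a2 differed by -0.54 ± 0.19 (edgeR quasi-likelihood test, adjusted p = 0.0489), with -0.32 in adipocytes and 0.11 in SVC. That call ended without adipocyte LFD library 404 (adjusted p = 0.0606), 405 (0.0684) or 406 (0.0581), HFD library 401 (0.0706), 402 (0.0851) or 403 (0.0986), or SW library 407 (0.0746), 408 (0.108) or 409 (0.0867). It ended without SVC library 236 (0.0641), 411 (0.148), 412 (0.107), 413 (0.0925) or 414 (0.157), in a leave-one-out range of 0.0451 to 0.157. It ended with upper-quartile factors (0.069), no filter (0.167), at least 10 counts in every library (0.0686) and only the groups compared (0.0656), in a range of 0.0017 to 0.167. Slc11a1 (-1.07 ± 0.41, edgeR quasi-likelihood test, adjusted p = 0.0696) and Slc48a1 (-0.72 ± 0.29, adjusted p = 0.0843) did not pass the test. DESeq2 called both, with an adjusted p of 0.0239 for Slc11a1 and 0.0178 for Slc48a1, over ranges of 0.0239 to 0.0796 and 0.0178 to 0.141. Slc11a1 was called without SVC library 411 (-1.51, adjusted p = 0.0102), in a leave-one-out range of 0.0102 to 0.262. Slc48a1 was called without adipocyte library 401 (adjusted p = 0.0422) or 407 (0.0474), in a leave-one-out range of 0.0422 to 0.25.

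Ferritin, ferroportin and transferrin receptor transcripts are known to carry iron responsive elements, short hairpins bound by the iron regulatory proteins that the genes Aco1 and Ireb2 encode. When iron is scarce, these proteins block translation where the hairpin precedes the coding part and protect the transcript from decay where hairpins follow it. The transcripts of the 10 genes were therefore searched, on the strand of the transcript, for C, 5 bases, the loop CAGTGN and 5 bases that pair with the first 5 as A-T, G-C or G-T. Sites were found in 4 of the 10 genes. Each is printed 5′ to 3′ on its gene's strand with the loop in capitals, to show which members share it and where they differ, from GENCODE M21 on build GRCm38. The sites before the coding part lie at chr19:9982732-9982760 on the plus strand (Fth1), chr7:45459779-45459807 on the minus strand (Ftl1) and chr1:45925465-45925493 on the minus strand (Slc40a1). The 4 sites after the coding part of Tfrc lie on the plus strand at chr16:32631219-32631247, chr16:32631598-32631626, chr16:32631663-32631691 and chr16:32631710-32631738, in the order printed.
Fth1: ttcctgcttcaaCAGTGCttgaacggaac
Ftl1: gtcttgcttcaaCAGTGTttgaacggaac
Slc40a1: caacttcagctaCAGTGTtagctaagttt
Tfrc, site 1: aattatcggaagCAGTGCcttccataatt
Tfrc, site 2: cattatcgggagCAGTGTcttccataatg
Tfrc, site 3: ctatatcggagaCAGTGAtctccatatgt
Tfrc, site 4: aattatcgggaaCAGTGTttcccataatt

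Fth1 and Ftl1 had the same 5 bases on either side of the loop and differed in its last base, C in Fth1 and T in Ftl1. The motif occurred before the coding part in 22 of 19602 genes (0.112%) and after it in 103 of 21542 genes (0.478%), with 1 transcript a gene. For windows of 1 length, 20 of 21680 transcripts (0.0923%) held it in their first 200 bases, and 45 of 5443 (0.827%) in the first 1500 bases after the coding part. For the other 6 genes, Slc11a2 among them, no match says only that these letters are not in the transcripts searched. A match is a description of the sequence and was not related to the levels measured.

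The other iron and heme genes were counted in 6 lists of 67 genes, of which 65 were in the tables and 61 were tested in adipocytes. In HFD against LFD adipocytes 19 of the 61 rose and 12 fell, with a median of 0.16. Over all genes tested 26.5% rose and 25.0% fell, so that the shares over the 6 lists lay near those of all genes, and the counts of single lists stand against the same background. The list of heme and hemoglobin handling had the largest median (0.66), with 6 of 11 genes higher and 2 lower. The list of mitochondrial iron and iron-sulfur clusters had the lowest (-0.54), with 1 of 11 higher and 5 lower.

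In the list of heme and hemoglobin handling, Lrp1, a receptor for heme bound to hemopexin, rose in HFD adipocytes (1.67 ± 0.20, edgeR quasi-likelihood test, adjusted p = 0.000121), as did the biliverdin reductase gene Blvrb (0.94 ± 0.22, adjusted p = 0.00551). Hpx, which encodes hemopexin, rose (2.04 ± 0.55, edgeR quasi-likelihood test, adjusted p = 0.0107) from a low level, with 0.836, 2.03 and 0.594 CPM in LFD and 1.81, 6.11 and 7.96 CPM in HFD. Its HFD library 401 lay within the LFD range, and its log2 fold change ran from 1.65 without HFD library 403 to 2.88 without LFD library 405. Abcg2, a porphyrin and heme exporter, fell (-0.87 ± 0.20, edgeR quasi-likelihood test, adjusted p = 0.00506), and so did the porphyrin transporter gene Abcb6 (-0.41 ± 0.14, adjusted p = 0.0371). The call of Abcb6 ended without LFD library 404 (adjusted p = 0.0659), 405 (0.113) or 406 (0.071), without HFD library 401 (0.102) or 403 (0.133), and with no filter (0.0854).

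Cd163, the macrophage receptor for hemoglobin bound to haptoglobin, measured 20.1, 23.4 and 12.9 CPM in LFD adipocytes and 32.7, 27.8 and 28.0 CPM in HFD. It rose 1.53-fold (0.62 ± 0.23, edgeR quasi-likelihood test, adjusted p = 0.0432), less than Slc11a1 or Hmox1. The call ended without LFD library 404 (adjusted p = 0.0661) or 406 (0.131), without HFD library 401 (0.111), 402 (0.0529) or 403 (0.0686), and with upper-quartile factors (0.0805). The haptoglobin gene Hp was abundant in adipocytes, at 1371 to 5763 CPM, and was not called (0.66 ± 0.36, edgeR quasi-likelihood test, adjusted p = 0.146).

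In the list of the transferrin cycle and non-transferrin uptake 2 of 12 genes rose and 0 fell (median 0.15). Steap3, the ferrireductase of the transferrin cycle, measured 42.4, 33.5 and 28.9 CPM in LFD, 99.0, 90.2 and 104 CPM in HFD and 76.8, 59.4 and 61.5 CPM in SW, 3 groups that did not overlap. It rose 2.76-fold with HFD (1.47 ± 0.16, edgeR quasi-likelihood test, adjusted p = 8.11e-05), while Tfrc, its partner in that cycle, was not called. Lcn2, which binds iron-laden siderophores, rose (1.15 ± 0.41, edgeR quasi-likelihood test, adjusted p = 0.0378). That call ended without LFD library 404 (adjusted p = 0.0906) or 406 (0.0691), without HFD library 401 (0.0741) or 402 (0.108), with no filter (0.0731) and with only the groups compared (0.0587). The log2 fold change of Lcn2 ran from 0.79 without LFD library 406 to 1.91 without LFD library 405. The metalloreductase gene Steap4 was not called (-0.49 ± 0.21, edgeR quasi-likelihood test, adjusted p = 0.0762). It was called lower with DESeq2 (adjusted p = 0.0425), upper-quartile factors (0.0448) and only the groups compared (0.0301), and without SW library 407 (0.0194).

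In the list of iron regulation, chaperones and ferritinophagy 3 of 10 genes rose and 0 fell (median 0.20). Ncoa4, the receptor that delivers ferritin to lysosomes, measured 117, 98.3 and 110 CPM in LFD, 192, 185 and 191 CPM in HFD and 91.4, 147 and 134 CPM in SW adipocytes. Its HFD libraries stood above all others, and it rose 1.73-fold from LFD to HFD (0.79 ± 0.17, edgeR quasi-likelihood test, adjusted p = 0.00349). Frrs1, a ferric reductase gene, rose 3.42-fold (1.78 ± 0.17, adjusted p = 3.59e-05). Of the genes for the iron regulatory proteins, Ireb2 rose (0.49 ± 0.15, edgeR quasi-likelihood test, adjusted p = 0.0203) and Aco1 did not pass the test (-0.11 ± 0.16, adjusted p = 0.586). The call of Ireb2 ended without LFD library 405 (adjusted p = 0.0655) or 406 (0.0769), without HFD library 403 (0.0587), and with upper-quartile factors (0.0582). Fbxl5, whose product marks iron regulatory proteins for degradation, gave 0.25 ± 0.13 (edgeR quasi-likelihood test, adjusted p = 0.14) and was called without HFD library 401 (adjusted p = 0.0461). The hepcidin gene Hamp was near 0 in adipocytes, with at most 2 counts in a library, and was not tested there.

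In the heme synthesis list 1 of 8 genes rose and 3 fell (median -0.30). Alad fell 3.11-fold in HFD adipocytes (-1.64 ± 0.19, edgeR quasi-likelihood test, adjusted p = 9.14e-05), Ppox fell (-0.84 ± 0.18, adjusted p = 0.00355) and Cpox rose (1.01 ± 0.25, adjusted p = 0.00658). Uros fell (-0.63 ± 0.18, edgeR quasi-likelihood test, adjusted p = 0.0157), a call that ended without HFD library 403 (adjusted p = 0.0583). Among genes of mitochondrial iron and iron-sulfur clusters, Glrx5 fell 3.13-fold (-1.64 ± 0.23, edgeR quasi-likelihood test, adjusted p = 0.000279). It measured 139, 191 and 181 CPM in LFD, 41.3, 69.0 and 55.3 CPM in HFD and 154, 94.6 and 118 CPM in SW, so that HFD stood apart as the low group. The importer gene Slc25a28 (-0.87 ± 0.17) and the scaffold gene Iscu (-0.77 ± 0.15) fell too.

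NRF2 and BACH1 are known regulators of Hmox1 and the ferritin genes. In the list of both regulators with their antioxidant targets 6 of 9 genes rose and 2 fell (median 0.54). Srxn1 rose 3.00-fold (1.58 ± 0.13, edgeR quasi-likelihood test, adjusted p = 1.38e-05), Txnrd1 2.17-fold (1.12 ± 0.12, adjusted p = 7.74e-05) and Bach1 2.17-fold (1.12 ± 0.16, adjusted p = 0.000289). Keap1 fell (-0.38 ± 0.10, edgeR quasi-likelihood test, adjusted p = 0.00843), and Nqo1, a classical target of NRF2, fell too (-0.57 ± 0.21, adjusted p = 0.0448). The call of Nqo1 ended without LFD library 405 (adjusted p = 0.104) or 406 (0.177), HFD library 402 (0.113) or 403 (0.168), or SW library 408 (0.0616), and with no filter (0.0826). That of Keap1 ended with no filter (0.0547). Srxn1 measured 32.8, 30.6 and 26.6 CPM in LFD, 91.2, 85.1 and 97.1 CPM in HFD and 99.5, 94.0 and 82.9 CPM in SW. Like Hmox1, it was as high in SW as in HFD libraries. Other genes of the list were not. Txnrd1 measured 113, 97.7 and 118 CPM in HFD and 71.8, 87.7 and 83.2 CPM in SW. Bach1 measured 54.9, 41.3 and 47.3 CPM in HFD and 37.5, 32.7 and 26.8 CPM in SW. For both, the SW libraries lay between the LFD and HFD libraries without overlap. Of the 9 genes 1 rose and 2 fell in SW against HFD.

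**Figure D4:**
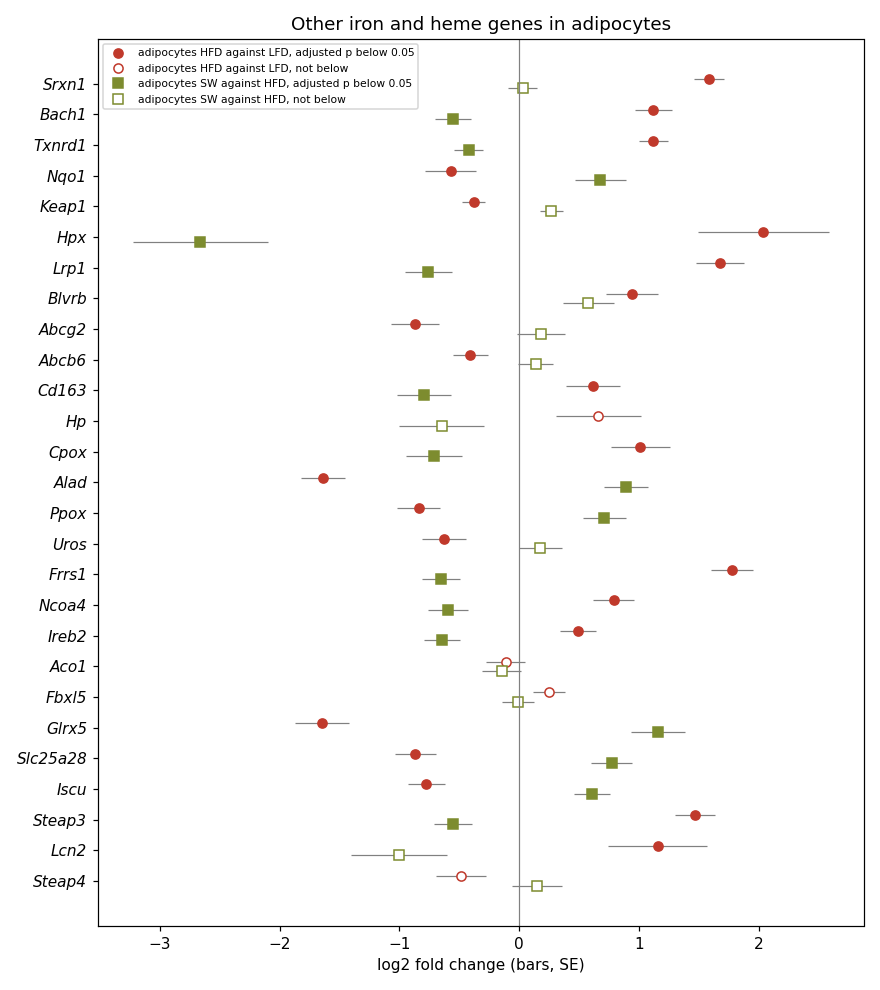
Log2 fold changes, with SE as bars, of the named genes of the other iron and heme lists in adipocytes, for HFD against LFD and for SW against HFD, which share the HFD libraries. Filled points passed edgeR's adjusted p below 0.05; with HFD, Hpx (2.04) and Frrs1 (1.78) were the highest and Alad (-1.64) and Glrx5 (-1.64) the lowest.

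In SW against HFD adipocytes 9 of the 61 genes rose, against 15.6% of all genes, and 12 fell, against 15.9% (median -0.03). Of the mitochondrial list 6 of 11 rose and 1 fell (median 0.50), of the heme synthesis list 2 of 8 rose and 1 fell (0.28). Of iron regulation 0 of 10 rose and 4 fell (-0.19), of heme handling 0 of 11 rose and 3 fell (-0.02), of the transferrin cycle 0 of 12 rose and 1 fell (-0.37), and of the NRF2 and BACH1 list 1 of 9 rose and 2 fell (-0.03). Against LFD, SW adipocytes had 11 of 61 genes higher, against 10.9% of all genes, and 2 lower, against 6.18% (median 0.01), 4 of the 11 higher from heme handling and 4 from the NRF2 and BACH1 list. In SVC, 3 of 63 genes tested rose in SW against HFD, where 5.71% of all genes did, and 9 fell, where 11.7% did (median 0.11).

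The genes whose levels followed each member most closely were ranked over the 15 libraries by Pearson's r of log2 CPM among 12146 genes. The libraries share fraction and diet, so r describes these libraries only. Slc11a1 was closest to C1qb, Irf5 and Tmem106a (r = 0.994 each) and Ftl1 to Ckb (0.994), C1qa (0.991) and Uap1l1 (0.990). Among the genes closest to Hmox1 were Dpep2 (0.986) and Cd68 (0.985). Tfrc was closest to Tmx3 (0.985), Dars (0.985) and Pdcl (0.984), Slc40a1 to Robo1 (0.883), Mrc1 (0.879) and Zfp36l2 (0.877), and Trf to Shpk (0.966), Il17re (0.953) and Srebf1 (0.948). Fth1 was closest to Rnaset2b (0.930), Slc11a2 to Rps6kc1 (0.972), Slc48a1 to Ube2v1 (0.946) and Cp to Ebf2 (0.837). Among the members, Hmox1 and Slc11a1 were the closest pair (r = 0.972, n = 15 libraries) and Tfrc and Slc48a1 the most opposed (r = -0.776).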

How the data were processed

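The deposited values are RSEM estimated counts per gene, written as whole numbers, that the authors made from reads mapped with Bowtie2. The submitters' processing notes name Bowtie2, RSEM, limma and mm9, and their versions are not given in the sources used here. The value columns were tied to a fraction and diet group, not to single samples of the labels, and 3 of the 18 value columns, all SVC, were not used because no label matched them.

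Counts were analysed in R 4.3.3 with edgeR 4.0.16 (filterByExpr with min.count 10, TMM factors, robust quasi-likelihood test, Benjamini-Hochberg adjustment over all genes tested, threshold 0.05). Each fraction was fitted alone for diet. Levels and comparisons across fractions used the raw counts of both tables scaled together. SE is the absolute log2 fold change over the square root of F. Figures were drawn with matplotlib 3.10.9, and tables were made with numpy 2.4.6 and pandas 2.3.3 in Python 3.11.15. The functions were tested on simulated data. Alternatives were DESeq2 1.42.0, limma-voom (limma 3.58.1), RLE and upper-quartile factors, no filter, at least 10 counts in every library, only the groups compared, ferritin copies added to the ferritin genes, and leaving out each library. Correlations used log2 CPM after adding 0.5.

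Members, 6 gene lists and 9 marker lists were chosen with earlier results of these data known. Besides the members, the naming rule took from each list the called genes with the largest changes in HFD against LFD adipocytes if their mean level was 1 or more in log2 CPM, together with a fixed set of iron regulators and heme carriers. Other named genes' calls were rerun under the alternatives for that comparison. Flvcr1, Flvcr2 and the marker Adgre1 were not matched by symbol. Transcript lengths and sequences came from GENCODE M21 on GRCm38, 1 complete coding transcript with the lowest number a gene. Neutrophil, endothelial, mesothelial, T cell and B cell markers summed to at most 105, 1577, 1044, 62.2 and 233 CPM in any library.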

Additional observations from a re-analysis of the deposited data

Results flagged for a closer look

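Tfrc went from HFD to SW differently in adipocytes and in stromal vascular cells, by 1.63 in log2, which the interaction term of edgeR's quasi-likelihood test called (adjusted p = 0.00326). Its levels were 35.1, 37.1 and 38.7 CPM in HFD and 28.9, 29.8 and 32.1 CPM in SW adipocytes, against 27.7 and 24.0 CPM in HFD and 5.20, 6.92 and 8.36 CPM in SW stromal vascular cells. The change of Slc11a2 differed by -0.54 under the same term (adjusted p = 0.0489). That call, unlike the one of Tfrc, ended with most libraries left out (adjusted p from 0.0451 to 0.157) and with upper-quartile factors, no filter, at least 10 counts in every library and only the groups compared. It went from 31.5, 33.3 and 32.9 CPM to 27.6, 24.2 and 25.8 CPM in adipocytes, and from 38.9 and 34.7 CPM to 40.8, 41.3 and 45.6 CPM in stromal vascular cells.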

How the results depend on the processing

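With a library left out, 704 member values kept their direction and side of the threshold, 49 lost and 12 gained a call, and 15 changed sign, none past the threshold. The changes of sign were in SW against HFD adipocytes for Hmox1 (-0.110 to 0.115), Slc40a1 (-0.467 to 0.0115) and Cp (-0.192 to 0.465), in SW against LFD adipocytes for Tfrc (-0.108 to 0.318) and Cp (-0.404 to 0.249), and in SW against HFD stromal vascular cells for Slc11a2 (-0.0363 to 0.352). In adipocytes against stromal vascular cells they were for Slc40a1 (-0.431 to 0.0208), Trf (-0.125 to 0.526) and Cp (-0.112 to 0.0409) in HFD and for Trf (-0.324 to 0.0312) in SW. Under the other settings 598 were the same, 15 lost and 14 gained a call, and 3 changed sign: Hmox1 in SW against HFD adipocytes with no filter (-0.034), and Cp in SW against LFD adipocytes with limma-voom (-0.0525) and upper-quartile factors (-0.0197). The number of called members stayed at 7 of 10 for HFD against LFD adipocytes (6 to 7 with a library left out). For SW against HFD adipocytes it was 2, but 1 with upper-quartile factors, 0 with no filter, 1 with only the groups compared and 0 to 2 with a library left out. For SW against LFD adipocytes it was 5, but 8 with DESeq2, 4 with no filter, 6 with only the groups compared and 4 to 6 with a library left out. For SW against HFD stromal vascular cells it was 2, but 4 with DESeq2, 1 with limma-voom, 1 with upper-quartile factors, 1 with no filter, 3 with only the groups compared and 0 to 4 with a library left out. For adipocytes against stromal vascular cells it was 2 in HFD, but 0 with only the groups compared and 0 to 2 with a library left out, and 6 in SW, but 7 with DESeq2, limma-voom, RLE factors and upper-quartile factors and 5 to 8 with a library left out. For the interaction it was 2, but 4 with DESeq2, 1 with upper-quartile factors, 1 with no filter, 1 with at least 10 counts in every library, 1 with only the groups compared and 1 to 2 with a library left out. The cause was not tested. Hpx gave no value with at least 10 counts in every library, since it fell below that filter. Other named genes lost 23 and gained 2 calls with a library left out. Adding named ferritin copies, or rows described as ferritin pseudogenes, an alternative chosen after seeing the data, left all calls as they were. Upper-quartile factors moved the median of all genes from -0.03 to -0.12 in HFD against LFD adipocytes and from -0.08 to -0.18 in adipocytes against stromal vascular cells of HFD mice. Leaving out a library of the stromal vascular HFD pair left 1, which was assumed to vary like the other groups. Library 236 set the lowest depth, 5781902 counts. No paired analysis was possible because the columns carry no replicate number of the labels.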

Other observations

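Transcripts of the liver were found in SVC HFD library 411. Hpx stood at 445 CPM there against 0.594 to 7.96 CPM in the other 14 libraries, and the hepcidin gene Hamp at 8.24 CPM against at most 0.217 CPM. Albumin, chosen after these values were seen, stood at 1373 CPM against 3.49 to 54.5 CPM.

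The single SVC library of LFD mice held 3355 CPM of Trf and 235 CPM of Cp, above the 972 to 1862 CPM and 45.0 to 72.4 CPM of the other SVC libraries. It also held the most Lcn2 (277 CPM against 4.50 to 25.6 CPM in the other SVC libraries), Steap3 (866 CPM against 171 to 583 CPM) and Cd163 (169 CPM against 32.9 to 70.6 CPM). The 5 mesothelial markers summed to 1044 CPM there and to 26.6 to 183 CPM in the other SVC libraries.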
